A study of Homo sapiens with 6 samples.

Results

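Nuclear receptors are transcription factors that, in most cases, are switched by a small fat-soluble ligand such as a steroid, a retinoid or a sterol. The human genes examined here are 46 named receptor genes, from the oestrogen receptors to the atypical receptor NR0B2. They were read through every probe set of the array that names 1 of them and no other gene. Of the 46 genes, 39 had at least 1 such probe set, 127 probe sets in all, among 19775 genes so represented on the array. NR1H2, NR1H4, NR1I2, NR1D1, HNF4A, NR2F2 and NR0B1 had none in the table used here and were not analysed here. For NR1D1 this has a known background: its gene overlaps that of THRA on the opposite strand, and 3 probe sets name both genes.

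The labels give all 6 samples as MDA-MB-231, an established line of mesenchymal-like breast tumour cells known for lacking oestrogen and progesterone receptors. The 3 parental arrays are labelled not_transfected, and the 3 others are labelled wtCopFry. The second group is labelled as 231wCFry, a single stable MDA-MB-231 clone that carries the wild-type Fry cDNA of the Copenhagen rat, introduced with a pEGFP-N1 plasmid under puromycin selection. Per the labels this clone was picked because its Fry level was near that of the non-transformed mammary line MCF10A, and no empty-vector clone is described. Both groups grew in the same serum-containing medium, a source of steroids and retinoids in each, and the design text says that samples of each line differed in passage number without giving the passages. The labels tie no culture or passage to a sample, so the p-values measure only the spread between these samples. How much of that spread comes from passage and how much is technical cannot be told apart.

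In their usual mode of action the receptors bind short DNA repeats through a zinc-finger domain and recruit coactivators when ligand is bound and corepressors when it is not. The steroid receptors act mainly as homodimers and are held ready by heat-shock chaperones. The retinoic acid, thyroid hormone, vitamin D, PPAR and LXR receptors pair with a retinoid X receptor. The orphan receptors, among them the NR4A, COUP-TF and REV-ERB proteins, act with no ligand or with ligands unlike hormones.

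The values are MAS5 signals in arbitrary units, and every array had the same trimmed mean, 150.0. The fit used log2(signal + 16), a scale that understates the change of dim genes, and each gene is read by its brightest probe set. Of 13630 genes tested with limma, 67.1% passed a Benjamini-Hochberg adjusted p of 0.05, with 34.1% higher and 33.1% lower in the wtCopFry arrays, so a call for any single gene was common. The introduced gene could not be checked through its human counterpart: the 4 probe sets for human FRY read at most 9.8 on any array, below the array median of 10.4 to 12.1, and their match to the rat cDNA was not determined. In a limma fit without the filter, a FRY probe set was lower, at 9.8, 5.9 and 9.1 on the parental arrays against 0.4, 0.1 and 0.6 (adjusted p = 9.72e-04). Another FRY probe set was also lower (adjusted p = 0.0396), and the others did not pass. FRYL, the human paralog, fell by 1.26 on its brightest probe set (adjusted p = 5.38e-06). The arrays also differed in markers of cell identity. Of 10 breast epithelial markers, 7 were lower and 1 higher in the wtCopFry arrays, and their signals summed to between 8738.1 and 9413.1 on each parental array and between 1821.3 and 1979.4 on each of the others. Of 8 melanocyte and neural crest markers, 6 were higher and none lower, with a summed signal of 386 to 470.6 against 5015.7 to 5475.7. SOX10 and S100B, from that list, read at most 0.8 and 1.7 on the parental arrays and at least 1376.1 and 1709.3 on the wtCopFry arrays. The ratio of 3'-end to 5'-end signal for GAPDH, a sign of RNA quality, was 1.36 to 1.39 against 1.24 to 1.33. For ACTB the ratio was larger, at 2.59 to 3.0 against 2.45 to 2.65. Of the other melanocyte and neural crest markers, MITF read 353.0 to 422.8 against 1083.4 to 1203.9 and ERBB3 15.1 to 26.9 against 755.4 to 865.6. MLANA and TYR were also higher, at up to 1.3 and 3.5 against up to 64.1 and 35.3. PMEL did not pass, with at most 14.3 on any array, and TYRP1, at most 10.4, was not tested. KRT19, a keratin of breast epithelium, read 1623.4 to 1709.9 in the parental group against 0.9 to 1.5. The groups thus stand apart in markers of cell identity although the labels give them the same line. Whether the wtCopFry RNA came from MDA-MB-231 cells was not tested, so each difference given here is between the arrays as labelled. The summed hepatocyte markers were lower in the wtCopFry arrays, at 36.0 to 39.0 against 324.9 to 436.4. The leukocyte sums were 7.2 to 12.6 against 71.8 to 85.8, and the endothelial sums 15.3 to 26.3 against 180.8 to 288.2. In each of these lists 2 genes were called lower, none higher, and the rest were not tested. Most of each parental sum came from a single gene: SERPINA1 (293.6 to 413.2), CSF1R (49.4 to 64.5) and PECAM1 (149.3 to 265.9). ALB, PTPRC, CD3E and VWF read at most 6.0 on any array. The differences in cell identity markers moved with the groups in every comparison that follows, and their part in the receptor differences was not tested.

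Of the 39 receptor genes, 28 passed the filter on low signal, and of these 11 were higher in the wtCopFry arrays, 11 were lower and 6 did not pass the test. The share called, 78.6%, stood beside 67.1% of all genes tested, and the shares in each direction, 39.3%, beside 34.1% and 33.1%. The groups of 3 arrays did not overlap in 23 of the 28 genes (82.1%), against 73.1% of all genes. A call with a difference of at least 1 on the log2 scale was made for 12 of the 28 (42.9%), against 23.2% of all genes. The median log2 difference was -0.08 over the 28 receptors and 0.01 over all genes. For 5 of the 28 (NR3C2, RXRG, RARB, RORA and NR4A1) the lower group's mean lay under the filter, so these passed it only through the group in which they were high and had to differ. In such bulk RNA, fewer cells with a transcript and less of it per cell cannot be told apart. The adjusted p of the 22 calls was at most 0.0179. Sizes depend on the scale: a mean over all tested probe sets of a gene, in place of the brightest, gave RXRA -0.78, VDR 0.78, RARB 1.69, THRA 0.40, NR2C1 -0.25, NR2F6 0.35, NR6A1 -0.38 and NR1D2 -0.89, with each of these calls kept. At the level of single probe sets, 23 of the 70 tested were higher, 22 lower and 25 did not pass, where 64.3% of all tested probe sets naming 1 gene were called.

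**Figure D1:**
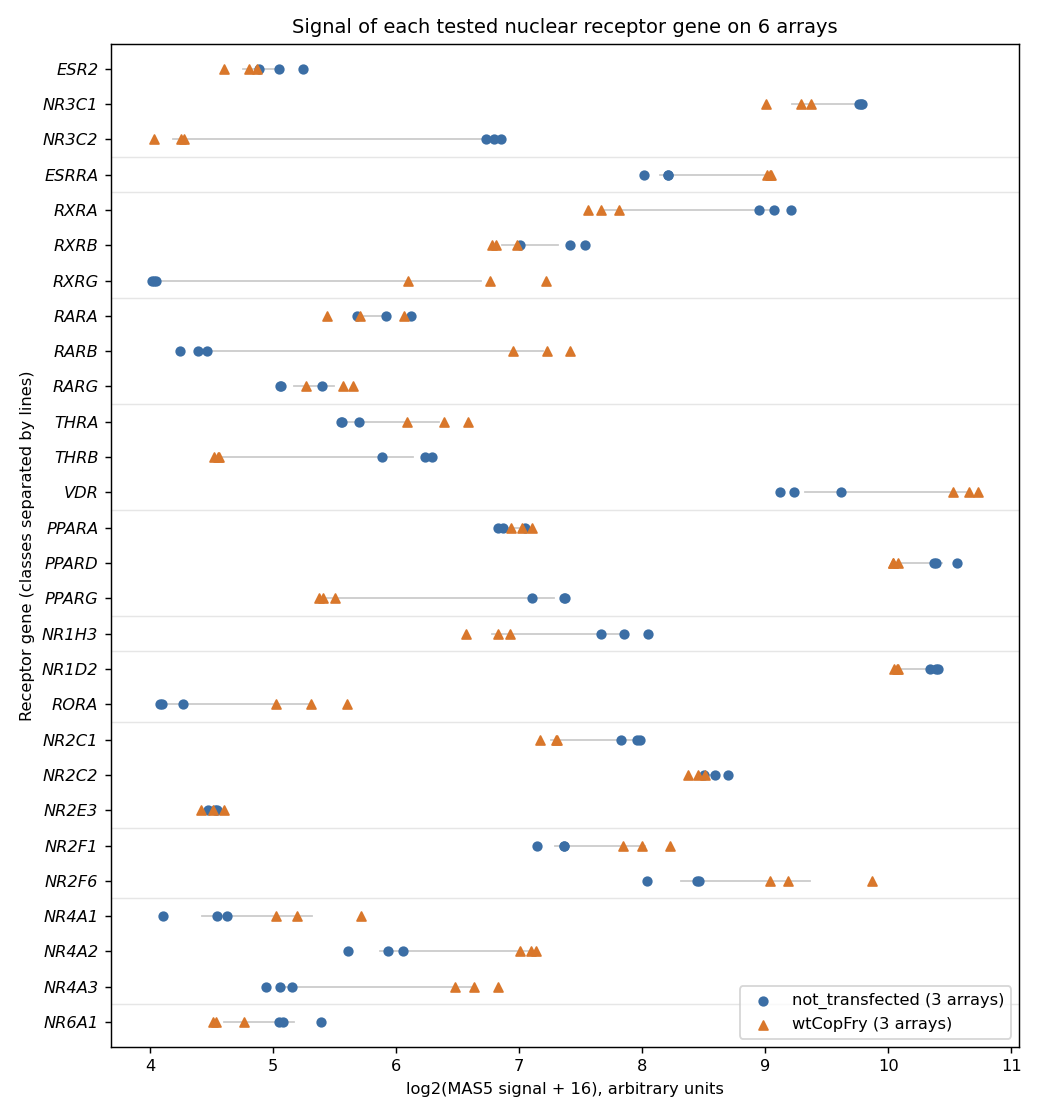
Signal of the brightest probe set of each of the 28 tested receptor genes, as log2(MAS5 signal + 16) in arbitrary units, on 3 not_transfected arrays (blue circles) and 3 wtCopFry arrays (orange triangles), with a grey line joining the group means. RARB and RXRG lie far to the right in the wtCopFry arrays and NR3C2, THRB and PPARG far to the left, while the groups of RARA and PPARA overlap. Levels of different genes come from different probes and are not comparable.

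Of the 5 classic steroid receptors 2 were lower, 1 was tested and did not pass, and 2 were below the array median in both groups. NR3C1 encodes the glucocorticoid receptor, which binds cortisol. Its brightest probe set read 852.0, 862.1 and 868.0 on the parental arrays and 645.1, 611.1 and 497.3 on the wtCopFry arrays, a log2 difference of -0.55 (SE 0.11, adjusted p = 0.00174). All 3 parental arrays lay above all 3 others, and the 3 other tested probe sets of NR3C1 also fell, by 0.43, 0.51 and 1.47 on the log2 scale. NR3C2, the mineralocorticoid receptor that binds aldosterone, read 90.3, 99.3 and 94.9 on the parental arrays and 0.4, 3.4 and 3.0 on the wtCopFry arrays. It fell by 2.60 (SE 0.10, adjusted p = 2.66e-08) to a level above the unspiked bacterial control probe sets on only 1 of the 3 wtCopFry arrays. This was the largest fall among the 28 receptors on this scale.

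ESR1, the oestrogen receptor alpha that defines hormone-responsive breast cancer, had 9 probe sets, and the highest signal among them on any array was 7.4. PGR, the progesterone receptor and itself an oestrogen-induced gene, read at most 2.5 on both of its probe sets. Both genes were below the array median in every reading of both groups. One ESR1 probe set passed a fit without the filter, with 1.4, 0.2 and 0.3 on the parental arrays and 5.3, 5.8 and 2.7 on the wtCopFry arrays (adjusted p = 0.022), all dim readings. ESR2, the oestrogen receptor beta, read 13.6, 17.1 and 21.9 on the parental arrays and 13.3, 11.9 and 8.3 on the wtCopFry arrays, a difference of -0.30 that did not pass (SE 0.12, adjusted p = 0.0513). Its groups did not overlap, but only just. A dimmer ESR2 probe set, at 5.4, 8.7 and 11.9 against 4.7, 4.0 and 1.2, was called lower (-0.35, SE 0.12, adjusted p = 0.0315). Without the first parental array the difference of the brighter one passed as well (-0.39, adjusted p = 0.0272). Another ESR2 probe set, removed by the filter, read 9.3, 7.2 and 5.2 against 0.5, 0.2 and 0.7. It was lower in the limma fit without the filter (adjusted p = 0.00204), and the remaining ones below the filter did not pass that fit.

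Among the oestrogen-related receptors, orphans that govern mitochondrial and energy genes, only ESRRA was above the array median in these cells. It read 279.7, 243.0 and 280.9 on the parental arrays and 501.6, 509.2 and 513.5 on the wtCopFry arrays. ESRRA thus rose by 0.89 (SE 0.09, adjusted p = 2.74e-05), and its other probe set rose from 75.4 ± 7.99 to 166 ± 11.3 (SD, n = 3). ESRRB read at most 10.8 and ESRRG at most 4.5, below the array median throughout.

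The retinoid X receptors, the shared dimer partners of many other receptors, did not move together. RXRA read 576.7, 522.2 and 479.8 on the parental arrays and 209.2, 187.1 and 172.2 on the wtCopFry arrays. That is a fall of 1.40 (SE 0.11, adjusted p = 3.38e-06), although a second, dimmer probe set of RXRA overlapped between the groups (-0.16, adjusted p = 0.393). RXRB read 169.6, 154.1 and 112.3 against 93.7, 110.8 and 96.2, a fall of 0.46 (SE 0.14, adjusted p = 0.0179). The lowest parental array was close to the highest wtCopFry array, and the RXRB call was lost on leaving out replicate 1 or 2 of the parental arrays or replicate 1 or 3 of the wtCopFry arrays (adjusted p 0.0538 to 0.0682). RXRG, the member with the narrowest tissue range, read 0.2, 0.4 and 0.5 on the parental arrays and 92.4, 133.0 and 52.5 on the wtCopFry arrays. Its difference was 2.66 (SE 0.23, adjusted p = 7.67e-06), or at least 25.2-fold against the highest unspiked bacterial control probe set of each parental array. RXRG was not above that control level on any parental array, and its wtCopFry arrays spread more widely than those of most receptors.

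The 3 retinoic acid receptors carry the signal of all-trans retinoic acid, the active form of vitamin A. RARB read 2.9, 6.0 and 4.9 on the parental arrays and 107.4, 154.6 and 133.7 on the wtCopFry arrays, a rise of 2.83 (SE 0.13, adjusted p = 9.14e-08). This was the largest rise among the 28 receptors, and the second tested probe set of RARB, much dimmer, rose by 0.54 (adjusted p = 0.012). RARA did not pass: 44.3, 35.3 and 53.5 against 50.8, 36.3 and 27.3 (-0.17, SE 0.17, adjusted p = 0.407), and its 3 other tested probe sets did not pass either. RARG read 26.1, 17.2 and 17.4 against 34.3, 31.5 and 22.5 (0.33, SE 0.14, adjusted p = 0.0606). The groups overlapped in RARA and RARG. For RARG the outcome varied: a second probe set rose (0.32, adjusted p = 0.0195), and the difference of the brightest one passed without the first parental array (0.44, adjusted p = 0.0223) or without the third wtCopFry array (0.44, adjusted p = 0.0207).

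RARB and RXRG rose most, so the DNA in front of their start sites is shown first, from RefSeq on the assembly GRCh38.p14. Each stretch holds the 250 bases before the gene's listed start, 5′ to 3′ on the gene's own strand, and other start sites of these genes are not covered. RARB (chr3:25428013-25428262, plus strand) shows in capitals the retinoic acid response element, GGTTCA and AGTTCA with any 5 bases between them, a direct repeat through which retinoic acid receptors are known to control this gene. The element begins 53 bases before the start. RXRG (chr1:165445127-165445376, minus strand) shows in capitals a single AGGTCA, the basic receptor-binding hexamer, in its reverse complement, and a TGACG.
RARB: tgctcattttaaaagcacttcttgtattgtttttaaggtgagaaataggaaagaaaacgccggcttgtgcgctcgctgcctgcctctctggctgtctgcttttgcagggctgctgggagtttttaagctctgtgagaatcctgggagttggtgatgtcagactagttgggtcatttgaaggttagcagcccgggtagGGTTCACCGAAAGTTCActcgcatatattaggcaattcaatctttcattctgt
RXRG: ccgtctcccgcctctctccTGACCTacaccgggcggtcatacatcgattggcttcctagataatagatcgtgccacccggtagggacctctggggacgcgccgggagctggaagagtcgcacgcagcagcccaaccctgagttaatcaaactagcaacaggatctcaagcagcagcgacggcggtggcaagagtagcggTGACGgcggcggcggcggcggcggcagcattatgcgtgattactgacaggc
The half-sites and spacing searched for were those of the known RARB element, so a match in RARB was fixed in advance. Neither this match nor its rarity elsewhere is therefore a result about RARB. Searched on both strands, the element was in 6 of 35116 such windows (0.0171%). Among the 41 receptor genes with a window, only that of RARB held it. AGGTCA was in 12.1% of all windows and in 7 of the 41 receptor windows, among them RXRG, PPARG and NR1H3. A match describes the letters only, and use of the element in these cells was not measured.

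Thyroid hormone and vitamin D receptors differed by gene. THRB, which encodes the beta receptor for thyroid hormone, read 62.4, 59.4 and 43.2 on the parental arrays and 7.0, 7.5 and 7.6 on the wtCopFry arrays. It fell by 1.59 (SE 0.12, adjusted p = 2.57e-06), and its second tested probe set fell by 1.45. THRA, the alpha receptor, read 35.9, 31.3 and 30.9 against 67.6, 79.7 and 52.2, a rise of 0.75 (SE 0.13, adjusted p = 7.11e-04). Another THRA probe set rose by 0.58, while a THRA probe set of similar level overlapped between the groups (-0.14, adjusted p = 0.341). Without the second wtCopFry array that probe set became the brightest of them, and the gene then gave -0.14 and no call (adjusted p = 0.452). VDR, the receptor for the hormone form of vitamin D, read 542.2, 587.6 and 766.9 on the parental arrays and 1602.5, 1462.4 and 1680.6 on the wtCopFry arrays. The rise of VDR was 1.32 (SE 0.13, adjusted p = 2.24e-05), and all 4 of its probe sets rose, by 0.44 to 1.32.

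**Figure D2:**
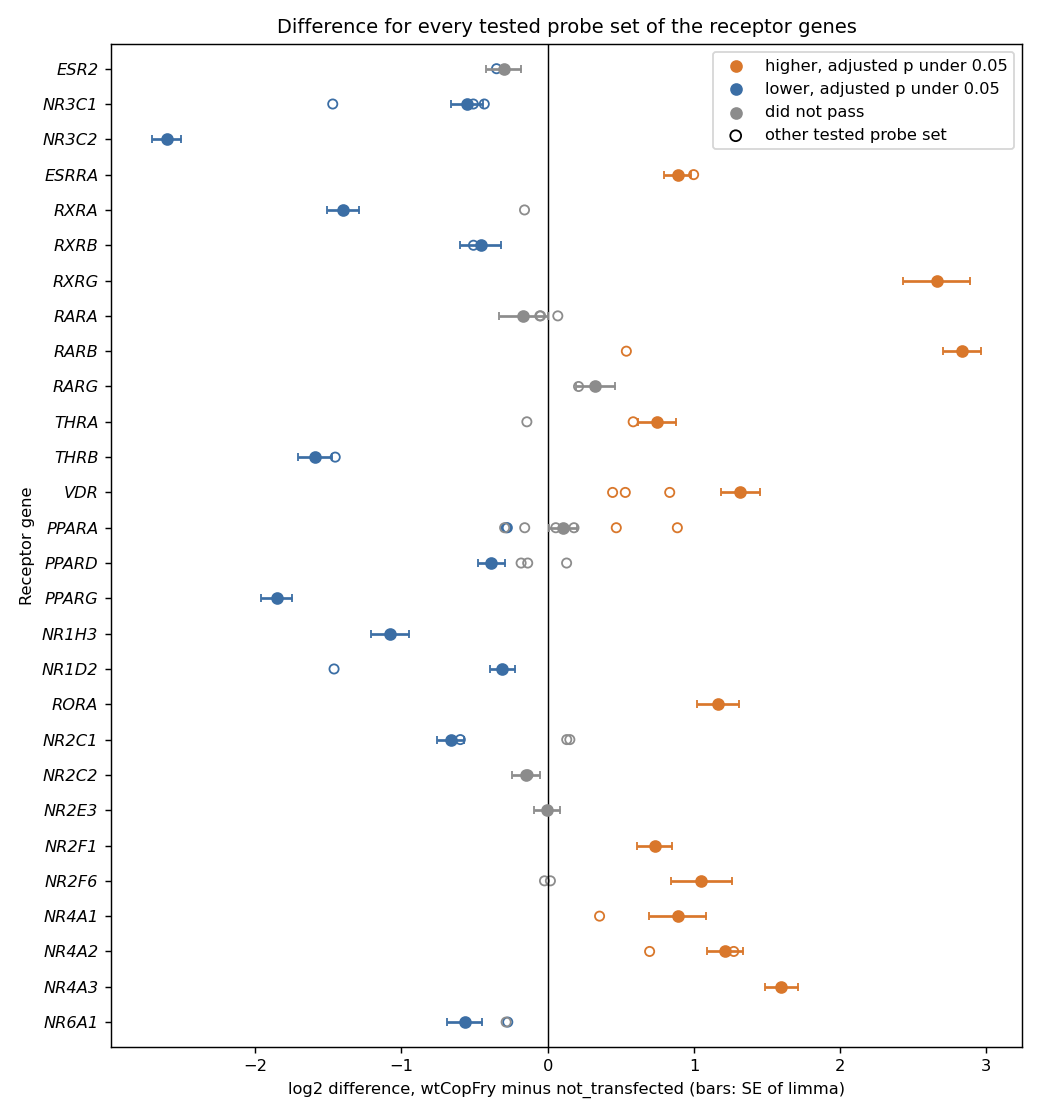
The log2 difference, wtCopFry minus not_transfected, for all 70 tested probe sets of the 28 receptor genes. Filled points are the brightest probe set of a gene with the standard error of limma as bars, open points are its other tested probe sets, and the colour gives the outcome of the test at an adjusted p of 0.05. RARB (2.83) and RXRG (2.66) stand at the right end and NR3C2 (-2.60) at the left, and PPARA is the only gene with probe sets called in both directions.

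The 3 PPARs, sensors of fatty acids, ended lower or without a call. PPARG, the regulator of fat cell formation, read 148.9, 149.6 and 121.5 on the parental arrays and 25.4, 26.3 and 29.4 on the wtCopFry arrays. It fell by 1.85 (SE 0.10, adjusted p = 3.97e-07) on its only probe set, with a wide gap between the groups. PPARD, the most widely expressed PPAR, read 1496.6, 1308.2 and 1324.0 against 1035.6, 1067.9 and 1038.5, a fall of 0.39 (SE 0.09, adjusted p = 0.00483). Its 3 other tested probe sets did not pass, and the mean over all 4 gave -0.14 and no call (adjusted p = 0.0889). PPARA, which drives fatty acid oxidation in liver, read 97.8, 116.0 and 101.0 against 121.7, 106.2 and 113.8 on its brightest probe set (0.10, SE 0.10, adjusted p = 0.382). Of its 9 tested probe sets 2 rose, 2 fell and 5 did not pass. Those that rose went from 12.9 ± 2.44 to 37.5 ± 4.81 (SD, n = 3; 0.89, adjusted p = 6.82e-05) and read 6.6, 5.7 and 3.8 against 17.7, 12.5 and 10.8 (0.47, adjusted p = 0.00479). Those that fell read 58.4, 64.3 and 51.8 against 48.1, 41.3 and 46.1 (-0.28, adjusted p = 0.0355) and 32.2, 37.0 and 32.7 against 23.1, 23.1 and 29.1 (-0.28, adjusted p = 0.0297). The readings give no single direction for PPARA.

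PPARG is shown here for its pair of AGGTCA hexamers, in capitals, in the 250 bases before its listed start (chr3:12287118-12287367, plus strand, GRCh38.p14).
PPARG: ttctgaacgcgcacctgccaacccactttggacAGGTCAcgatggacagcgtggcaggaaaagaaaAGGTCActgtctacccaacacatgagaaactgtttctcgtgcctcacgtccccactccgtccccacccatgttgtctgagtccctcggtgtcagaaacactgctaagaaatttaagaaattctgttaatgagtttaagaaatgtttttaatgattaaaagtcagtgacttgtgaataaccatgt
They lie 217 and 184 bases before the start, and 357 of 35116 windows (1.02%) held at least 2 such hexamers. PPARG was picked for this pair, so that share is not a result about PPARG. A direct repeat of AGGTCA with 1 to 5 bases between copies was in 15 windows of all genes and in none of the 41 receptor windows.

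Of the sterol, bile acid and xenobiotic receptors, NR1H3 and NR1I3 could be read. NR1H3, which encodes the oxysterol receptor LXR alpha, read 215.2, 249.2 and 186.9 on the parental arrays and 97.7, 105.9 and 79.1 on the wtCopFry arrays. It fell by 1.08 (SE 0.13, adjusted p = 7.49e-05), with no overlap. NR1I3, the xenobiotic receptor CAR of liver, read at most 3.2 in any array.

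Receptors of the circadian clock also went in opposite directions. NR1D2 encodes REV-ERB beta, a haem-binding repressor of clock genes, and read 1277.5, 1322.0 and 1340.5 against 1059.2, 1066.8 and 1043.1. That is a fall of 0.31 (SE 0.08, adjusted p = 0.00927), and the dimmer second probe set fell by 1.46. RORA encodes an activator that competes with REV-ERB for the same DNA sites. On its only tested probe set RORA read 0.9, 3.3 and 1.1 on the parental arrays and 23.7, 16.5 and 32.5 on the wtCopFry arrays, at least 6.81-fold higher against the bacterial control level (log2 difference 1.16, SE 0.14, adjusted p = 8.34e-05). The 7 other RORA probe sets were removed by the filter on low signal, so the rise rests on this probe set alone. RORB read at most 7.5 throughout.

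The COUP-TF receptors, regulators of development that can oppose retinoid signalling, were higher. NR2F1 (COUP-TFI) read 125.2, 149.1 and 148.6 on the parental arrays and 213.4, 283.7 and 239.1 on the wtCopFry arrays, a rise of 0.73 (SE 0.12, adjusted p = 5.65e-04). NR2F6 read 335.8, 332.2 and 247.1 against 510.6, 565.6 and 916.6, a rise of 1.05 (SE 0.21, adjusted p = 0.00172). The third wtCopFry array stood above its group for NR2F6, and the gene's 2 dimmer probe sets did not pass.

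Of the testicular orphan receptors, 1 was lower and 1 did not pass. NR2C1 (TR2) read 236.9, 232.2 and 211.6 on the parental arrays and 142.0, 127.6 and 142.2 on the wtCopFry arrays, a fall of 0.66 (SE 0.09, adjusted p = 1.88e-04). Of its 3 other probe sets 1 fell, and 2 overlapped between the groups and did not pass. NR2C2 (TR4), its close relative, read 368.9, 346.0 and 400.2 against 335.7, 316.2 and 348.5 and did not pass (-0.15, SE 0.09, adjusted p = 0.198). NR2E3, a photoreceptor gene, read 7.1, 6.2 and 7.3 against 6.8, 5.3 and 8.3, dim in both groups (-0.01, adjusted p = 0.959). NR2E1, of neural stem cells, read at most 4.0.

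All 3 NR4A receptors, immediate-early genes that are induced within a short time of growth factor, stress or cAMP signals, were higher in the wtCopFry arrays. NR4A3 read 19.6, 14.7 and 17.3 on the parental arrays and 83.5, 97.9 and 73.1 on the wtCopFry arrays, a rise of 1.60 (SE 0.11, adjusted p = 2.04e-06). NR4A2 read 45.2, 50.7 and 32.9 against 124.8, 120.8 and 112.5, a rise of 1.21 (SE 0.12, adjusted p = 2.31e-05), and both of its other probe sets rose too. The groups lay well apart for both genes. NR4A1 was dimmer, at 8.7, 7.3 and 1.2 against 16.6, 20.6 and 36.6, a rise of 0.89 (SE 0.19, adjusted p = 0.00289). Without the third wtCopFry array the NR4A1 rise was smaller (0.44, adjusted p = 0.0102). Its other tested probe set rose by 0.35. One removed by the filter read 0.5, 3.8 and 3.5 against 0.9, 3.7 and 0.5. For NR4A3 only 1 of 3 probe sets was tested. All tested probe sets of NR4A1 and NR4A2 were of the types _s_at and _x_at. Without those types NR4A3 was the only one of these genes tested, and its call was kept.

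NR4A3 is shown because its promoter holds several cAMP response motifs, the sequence through which these genes are known to answer cAMP. TGACG and its reverse complement are in capitals in the 250 bases before its listed start (chr9:99821635-99821884, plus strand, GRCh38.p14).
NR4A3: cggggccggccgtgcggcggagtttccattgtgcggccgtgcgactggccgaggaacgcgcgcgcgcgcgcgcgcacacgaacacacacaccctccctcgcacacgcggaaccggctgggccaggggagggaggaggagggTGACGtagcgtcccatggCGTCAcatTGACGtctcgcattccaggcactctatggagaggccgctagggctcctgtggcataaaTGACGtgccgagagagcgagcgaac
TGACG occurs 4 times here, 109, 91, 83 and 25 bases before the start. It was in 21.2% of all 35116 windows and in 9 of the 41 receptor windows, and 83 windows (0.236%) held it at least 4 times. NR4A3 was picked for these motifs, and the cut of 4 is its own count. The share of 0.236% is therefore not a result about NR4A3. The full palindrome TGACGTCA, which contains TGACG on both strands, was in 1.65% of all windows, in 2 of the 41 receptor windows and not in that of NR4A3. The NR4A1 window held none of these motifs.

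The remaining receptors were dim. NR6A1, the germ cell nuclear factor, read 17.1, 17.9 and 25.8 on the parental arrays and 6.8, 11.2 and 7.2 on the wtCopFry arrays, a fall of 0.57 (SE 0.12, adjusted p = 0.00257). NR5A1, which controls steroid hormone production in gonads and adrenals, read at most 2.5, and NR5A2 of liver and gut at most 8.3. HNF4G, a receptor of gut epithelium, read at most 6.8, and NR0B2, a corepressor-like receptor with no DNA-binding domain, at most 6.3. On the brighter HNF4G probe set the parental arrays read 4.2, 4.8 and 6.8 and the wtCopFry arrays 0.1, 0.9 and 0.1, at least 1.46-fold lower against the bacterial control level (adjusted p = 0.00505 in a fit without the filter). Without the filter, then, 12 of 39 receptor genes were called lower, beside 23.2% of all genes in that fit. With the filter these were 11 of 28, beside 33.1%.

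In all, 12 of the 39 receptor genes were silent in both groups in the sense that every one of their probe sets read below the array's median signal on all 6 arrays. These were ESR1, PGR, ESRRB, ESRRG, NR1I3, RORB, HNF4G, NR2E1, NR2E3, NR5A1, NR5A2 and NR0B2. Their 32 probe sets read at most 10.8. The share, 30.8%, was close to the 31.7% of all 19775 genes that met the same rule. By the same line RXRG, RARB, RORA and NR4A1 were silent in the parental arrays only, and NR3C2 and THRB in the wtCopFry arrays only. The other 21 were above it in at least 1 reading of each group. What share of all genes was silent in 1 group only was not determined. The median is a line of description and not a limit of detection, and under a lower line, the highest unspiked bacterial control probe set of each array (2.5 to 4.9), 2 of the 39 were silent in both groups.

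**Figure D3:**
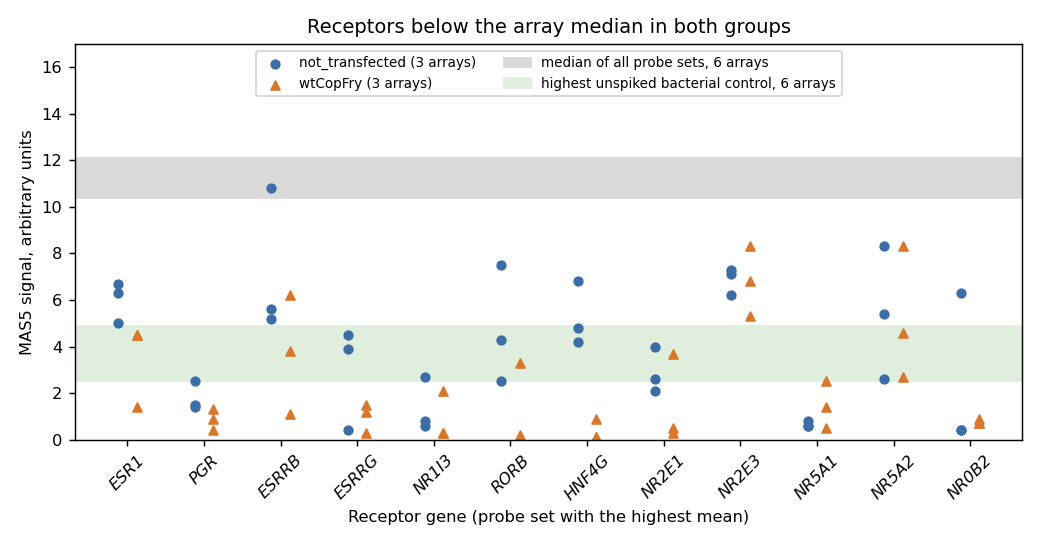
MAS5 signal in arbitrary units of the brightest probe set of the 12 receptor genes below the array median in both groups, on 3 not_transfected arrays (blue circles) and 3 wtCopFry arrays (orange triangles). The grey band spans the medians of all probe sets on the 6 arrays (10.4 to 12.1) and the green band the highest unspiked bacterial control (2.5 to 4.9). One ESRRB reading of 10.8 falls in the grey band but lies below the median of its own array, 12.1.

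Genes that work with the receptors were read from 12 lists with 133 genes, of which 106 were tested. Of these, 40 were higher in the wtCopFry arrays, 40 lower and 26 did not pass, a share called of 75.5% beside 67.1% of all genes. Some genes stand in 2 lists and are counted once here. Coactivators and corepressors, the proteins that receptors recruit to open or close chromatin, moved in both directions. Of 17 coactivators 6 rose, 7 fell and 4 did not pass (median -0.04). PELP1, a scaffold for steroid receptors, read 187.7, 195.5 and 183.3 against 562.8, 526.1 and 450.6, a rise of 1.36 (SE 0.10, adjusted p = 3.06e-06). EP300, a histone acetyltransferase, rose from 299 ± 38.2 to 721 ± 22.9 (SD, n = 3). MED1, the Mediator subunit that receptors contact, fell from 362 ± 6.20 to 195 ± 15.2. All 9 tested corepressors passed, with 3 higher and 6 lower (median -0.37). NRIP1, also called RIP140, read 178.8, 193.0 and 170.6 against 54.9, 52.5 and 53.7, a fall well beyond the spread within either group (adjusted p = 5.61e-07). LCOR, a ligand-dependent corepressor, fell from 318 ± 28.2 to 111 ± 7.55, and the histone deacetylase HDAC3 from 567 ± 8.44 to 217 ± 10.4.

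Of 11 tested chaperones of the steroid receptors, 4 rose, 1 fell and 6 did not pass (median 0.11). The HSP90 genes that hold the steroid receptors ready did not pass: HSP90AA1 read 4410.2, 5049.2 and 5558.9 against 4739.6, 4356.9 and 5703.8 (adjusted p = 0.885), and HSP90AB1 read 2747.5, 2987.4 and 2996.2 against 2754.7, 2505.1 and 2990.0 (adjusted p = 0.487). CDC37, a kinase cochaperone, rose from 425 ± 21.9 to 886 ± 64.6, and BAG1 from 585 ± 66.6 to 853 ± 5.09. FKBP5, a cochaperone that is itself a glucocorticoid-induced gene, fell from 1495 ± 48.0 to 1078 ± 32.7.

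Retinoid genes held large rises and large falls side by side. Of 8 tested genes of retinoid supply and breakdown 4 rose, 3 fell and 1 did not pass (median 0.51). DHRS3, which turns retinal back to retinol and is induced by retinoic acid, read 10.3, 29.5 and 7.4 on the parental arrays and 921.8, 998.1 and 824.7 on the wtCopFry arrays, a rise of 4.93 (SE 0.22, adjusted p = 7.68e-08). ALDH1A3, an enzyme that makes retinoic acid, read 191.9, 229.5 and 236.8 against 1853.5, 1786.6 and 1977.1, a rise of 3.01 (SE 0.10, adjusted p = 1.44e-08). Both lay far apart between the groups, as RARB and RXRG did. FABP5, a carrier of fatty and retinoic acids, fell from 1132 ± 71.6 to 550.1 ± 17.9. Of 6 tested retinoic acid receptor targets 2 rose, 3 fell and 1 did not pass (median -1.96). TGM2, tissue transglutaminase, read 1671.9, 1708.3 and 1604.9 against 25.0, 22.5 and 30.7, a fall of 5.32 (SE 0.10, adjusted p = 3.59e-10). RARRES2, which encodes chemerin, fell from 365 ± 139 to 4.63 ± 2.91. The listed targets therefore gave no shared direction, with DHRS3 rising beside these falls.

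For ligands of other receptors, 3 of 10 tested metabolic genes rose, 4 fell and 3 did not pass (median -0.03). CYP27A1, which makes oxysterols and takes part in vitamin D activation, rose from 95.9 ± 10.8 to 381 ± 24.9, and STS, steroid sulfatase, fell from 310.5 ± 8.32 to 244 ± 19.2. Glucocorticoid receptor targets were split, with 3 of 8 higher, 3 lower and 2 not passing (median -0.13). KLF9 rose from 114 ± 28.9 to 370 ± 61.8 (SD, n = 3) and TSC22D3, which encodes GILZ, from 145 ± 41.3 to 400 ± 24.8, while CEBPD fell from 194 ± 47.6 to 72.1 ± 20.4. Their receptor NR3C1 was lower, as given above. Of 8 oestrogen receptor targets 2 rose, 5 fell and 1 did not pass (median -0.72), in cells whose ESR1 readings were all below the array median. GREB1 read 5.7, 14.4 and 7.7 against 234.8, 226.6 and 242.4, a rise of 3.33 (SE 0.13, adjusted p = 2.91e-08). IGFBP4 fell from 2851 ± 164 to 3.37 ± 0.85 and SERPINA1 from 342 ± 63.1 to 24.8 ± 1.53.

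Targets of the lipid and vitamin D receptors and the clock genes completed the lists. Of 7 LXR targets 2 rose, none fell and 5 did not pass (median 0.31), while NR1H3 itself was lower. ABCA1, a cholesterol exporter, read 29.4, 73.4 and 18.9 against 183.7, 191.8 and 164.7, a rise of 1.91 (SE 0.28, adjusted p = 2.78e-04), and LPCAT3 rose from 93.1 ± 11.2 to 287 ± 18.3. Of 8 PPAR targets 4 rose, 3 fell and 1 did not pass (median 0.19). PDK4 fell from 242 ± 69.2 to a level not above the bacterial controls, at least 66.7-fold lower, and ANGPTL4 from 216 ± 99.7, at least 56.2-fold lower. VLDLR rose from 18.8 ± 3.07 to 127 ± 22.7. All 5 tested vitamin D receptor targets passed, 2 higher and 3 lower (median -0.35), and SPP1, osteopontin, read 2.4, 2.7 and 5.8 against 1011.8, 1248.3 and 1058.9, a rise of 5.84 (SE 0.11, adjusted p = 4.32e-10). CYP24A1, the most direct VDR target, read 28.2, 15.3 and 49.3 against 0.3, 1.6 and 0.2, at least 7.87-fold lower against the bacterial control level (adjusted p = 3.63e-04), while VDR rose. Of 13 clock partners of REV-ERB and ROR 6 rose, 4 fell and 3 did not pass (median -0.07). BHLHE41 rose from 33.8 ± 3.55 to 208 ± 36.5 and DBP from 36.2 ± 8.49 to 102 ± 3.30, and CRY1 fell from 382 ± 57.3 to 162 ± 11.3. Where a called partner gene is given without its p, that adjusted p was at most 0.0113, the value for STS.

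**Figure D4:**
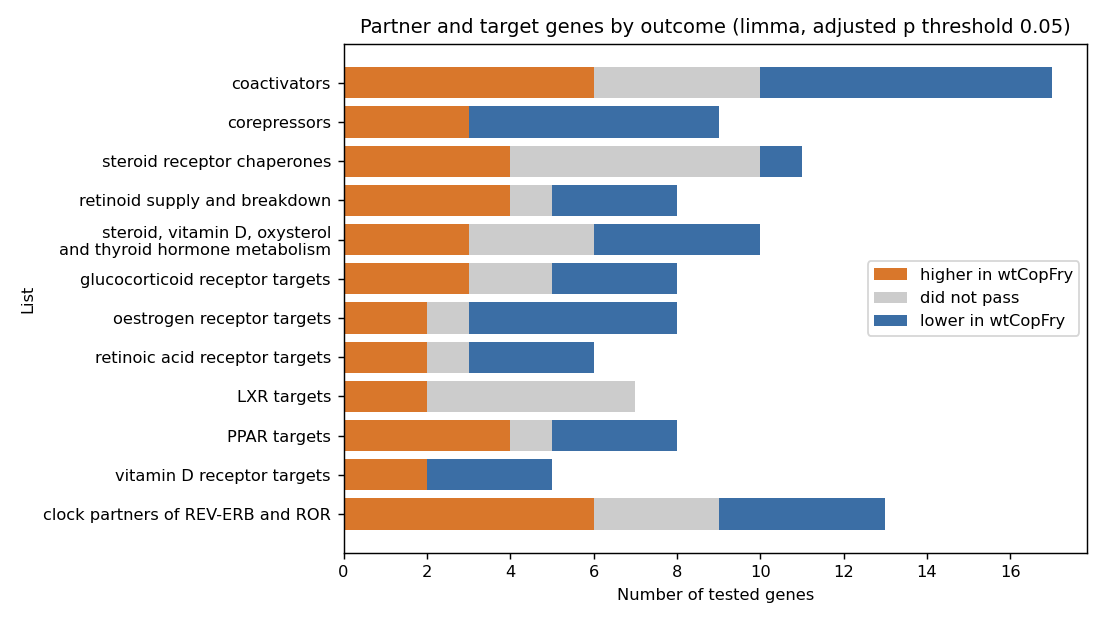
Number of tested genes in each of 12 lists of receptor partners and targets that were higher in the wtCopFry arrays (orange), lower (blue) or did not pass (grey) at a limma adjusted p of 0.05. The coactivators show 6 rises and 7 falls, the corepressors 3 and 6, and the LXR targets 2 rises and no fall.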

How the data were processed

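Total RNA of 6 samples at 70% confluence was amplified from 40 ng per sample, labelled with biotin and read on a 1-colour Affymetrix array with 54675 probe sets, per the labels' protocols. The authors deposited MAS5 signals, a linear intensity per probe set, per the submitters' processing notes. For the MAS5 version and scaling target nothing is stated. MAS5 subtracts mismatch signal, so ratios of dim values are unstable.

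Genes were named from GEO's platform annotation through probe sets naming 1 gene (41091), and 0 symbols changed against RefSeq (GRCh38.p14). Probe sets with a mean signal at or above the 40th percentile (5.87) were tested, 32771 in all, on log2(signal + 16) with limma 3.58.1 (lmFit, eBayes; R 4.3.3) over 3 arrays per group, without covariates, adjusted by Benjamini-Hochberg over all of them at 0.05. The probe set of highest mean signal stands for its gene. A group in which no array exceeded the highest of 27 unspiked bacterial control probe sets was treated as background, and folds against it are lower bounds. On data simulated from these means and spreads the fit recovered 83% of log2 changes of 1 and 100% of changes of 2, with 5 false calls. Only 100 of 32771 simulated probe sets were changed by each amount, a far smaller share than was called in the real arrays. The adjusted p depends on that share, so these rates do not describe the real comparison. In partner lists the text names the 3 largest called differences whose brighter group reached 88.2, the median of tested probe sets; the HSP90 genes and CYP24A1 were named after their values were seen. The members and lists were chosen with earlier results of these data known. Correlation of arrays was 0.992 to 0.995 within groups and 0.869 to 0.874 between them, and arrays of a group shared at most 2.15% identical values. The number of arrays limits the precision.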

Additional observations from a re-analysis of the deposited data

How the results depend on the processing

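Over all pairs of a tested receptor and an alternative, 392 stayed on their side of the threshold, 5 lost the call in the same direction, 6 gained it and 1 lost it with a change of sign. Among the 392, NR2E3, near 0 and never called (-0.01), turned positive under quantile normalization (0.01) and without the first parental, the third parental or the second wtCopFry array (up to 0.04). The call lost with a change of sign was THRA without the second wtCopFry array (-0.14), where another probe set became the brightest; leaving out other arrays gave THRA up to 0.88. Without probe sets of the types _s_at and _x_at, fewer genes were tested, among them 19 receptors in place of 28. Of these 7 were higher and 8 lower, beside 33.8% and 33.4% of all genes in that setting. There 52 of 75 partner genes were called in place of 80 of 106, beside 67.1% of all genes. Leaving out 1 array at a time gave 10 to 12 receptors higher, 10 to 11 lower, 73 to 80 partner genes called and 12 receptors silent in both groups. Of all genes, those fits called 30.9% to 33.3% higher, 30.2% to 31.7% lower and 61.7% to 65.0% in either direction. A line at the 40th percentile of each array in place of the median left 6 receptors silent in both groups, and the bacterial control line left 2. With the replicate number as a block, 12 receptors were higher and 11 lower, RARG being the gain (adjusted p = 0.0243). The shares of all genes in that fit were 34.3% and 33.3%. Same-numbered arrays of the groups had correlations of their deviations of 0.07, 0.07 and 0.19, and differently numbered arrays -0.13 to 0.08. The same-numbered values thus leaned higher but were small, and these values do not settle whether the arrays were paired. The labels state no pairing, so the main fit took none. The log2 differences of dim receptors depend on the pseudocount: with 1 in place of 16, RXRG gave 6.01, RARB 4.60, RORA 3.24 and NR3C2 -5.04, and with 64 they gave 1.25, 1.51, 0.42 and -1.26, with every call kept.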
